A study of Mus musculus with 2 samples.

Results

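Transcription factor genes of the T-box, basic helix-loop-helix, homeobox, orphan nuclear receptor and zinc finger families were followed in embryonic mouse lung. They were Tbx2, Tbx3, Tbx4, Tbx5, Tcf21, Meox2, Nr2f1, Nr2f2, Osr1 and Barx1, a list of 10 symbols matched by gene identifier, and all 10 were found among the 43346 mouse genes of the deposited tables. The tissue was whole lung of B6NCrl embryos at embryonic day 14.5, when the airways are still branching. Total RNA was sequenced as 1 group of 2 libraries, biological replicates 1 and 2, which were collected on days 15 and 17 of July. There was no other genotype, treatment or time, so the measurements give the levels of these genes and the distance between the 2 libraries, and each p-value below compares the 2 libraries, not conditions.

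T-box proteins bind DNA through a shared domain and either activate or repress their targets. In lung mesenchyme, Tbx4 and Tbx5 act upstream of Fgf10 and drive bud branching, whereas Tbx2 and Tbx3 are repressors that keep the mesenchyme dividing. Tcf21 is a basic helix-loop-helix factor of lung, kidney and spleen mesenchyme, Meox2 is a homeobox factor of mesoderm, and Nr2f1 and Nr2f2 are the orphan nuclear receptors COUP-TFI and COUP-TFII. Osr1 encodes a zinc finger factor of intermediate and lateral mesoderm, and Barx1 a homeobox factor of stomach mesenchyme.

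Expected counts, the deposited estimates of how many reads each gene received, summed to 33601136 for replicate 1 and 34535168 for replicate 2, with 31940637 and 33167255 of them on mouse genes. TPM, the deposited abundance unit, divides by effective length and scales to a fixed sum over all features, spike-in RNA included. The labels call each sample pooled male and female and also the single lung of a pup, yet the sum of 4 Y-linked genes (Uty, Kdm5d, Eif2s3y and Ddx3y) was 113 TPM for replicate 1 and 0.05 TPM for replicate 2, while Xist had 0.07 and 70.1 TPM. Markers of lung were present: all 11 epithelium genes, led by Sftpc, Epcam and Spint2, and all 11 mesenchyme genes, led by Mest, Col3a1 and Col1a1, had 1 TPM or more in both libraries. RNA of heart muscle marker genes differed between the libraries, where the sum of 16 such genes was 728 TPM for replicate 1 and 130 TPM for replicate 2. The source of that RNA, within or beside the lung, was not tested. The effect of that difference on the factors was not tested, and its values are given beside the results they touch.

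Some of the 10 genes carry alternative exons that change the encoded protein, and the sequences that tell these transcripts apart are shown first. In Tbx3 a 60-nt coding exon at chr5:119675243-119675302 (plus strand, mm10) lies within the region that encodes the T-box, and its use adds residues to the DNA-binding domain. It is the third exon of the transcript Tbx3-201 and is absent from Tbx3-202 and Tbx3-203. The alternative exon stands in capitals, with 15 nt of each neighbouring exon in lower case, and the joined form without it follows.
Tbx3-201: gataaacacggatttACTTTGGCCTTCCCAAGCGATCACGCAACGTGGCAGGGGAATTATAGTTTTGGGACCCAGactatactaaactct
Tbx3-203: gataaacacggatttactatactaaactct

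Nr2f2 has alternative first exons on the minus strand of chromosome 7. The first exon of Nr2f2-201 holds 442 coding nt, which encode the amino-terminal part of COUP-TFII with most of its DNA-binding zinc fingers. Transcription of Nr2f2-202 starts farther upstream, and its first exon holds 43 coding nt that begin with a start codon. The last 43 nt of each first exon are in capitals (chr7:70359888-70359930 for Nr2f2-201 and chr7:70366093-70366135 for Nr2f2-202), followed by 15 nt of the shared next exon in lower case.
Nr2f2-201: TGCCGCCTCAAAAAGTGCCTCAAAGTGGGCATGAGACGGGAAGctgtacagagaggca
Nr2f2-202: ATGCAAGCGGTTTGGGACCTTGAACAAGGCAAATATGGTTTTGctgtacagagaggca
These 4 sequences were read from the GENCODE M21 transcripts, which are on the same build as the deposited tables.

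Of the 10 genes, 9 had a TPM of 1 or more in both libraries, and Barx1 did not. Among all 21474 annotated protein-coding genes of the tables the share was 58.8%. The median of the 10 mean levels was 43.9 TPM, against 4.10 TPM over the protein-coding genes. The summed level of the 10 factors was 503 TPM in replicate 1 and 518 in replicate 2. Because the libraries are bulk tissue, a low level can mean few cells that express the gene or little RNA in each, and these cannot be told apart.

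**Figure D1:**
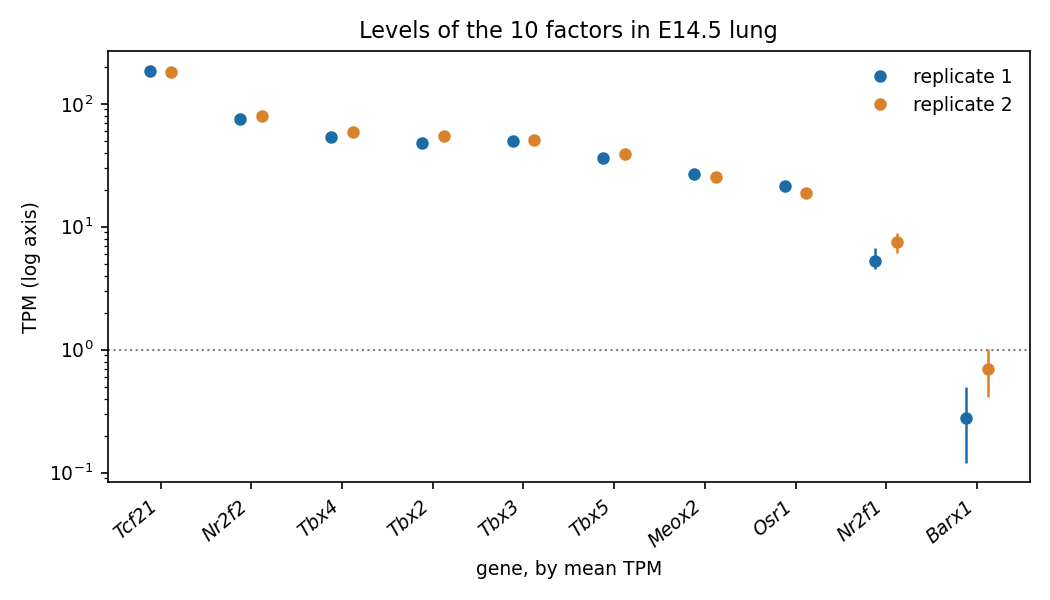
TPM of each factor (log axis) in replicates 1 and 2, with the authors' deposited interval as vertical lines and the level of 1 TPM dotted. Tcf21 stood highest at 186 and 182 TPM, Barx1 lowest at 0.28 and 0.69 TPM, and the 4 T-box genes lay between 36.1 and 59.4 TPM.

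Tbx4, an activator of the limb and lung bud fields (ENSMUSG00000000094.8, chr11:85886422-85916097), stood at 53.5 TPM in replicate 1 and at 59.4 TPM in replicate 2. Its close relative Tbx5, also needed in heart and forelimb (ENSMUSG00000018263.8, chr5:119832668-119885219), had 36.1 and 39.3 TPM. Tbx4 was the higher gene in each library, with TPM ratios of 1.48 and 1.51 to Tbx5.

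The repressor genes lay at nearly the same level. Tbx2 (ENSMUSG00000000093.6, chr11:85832551-85841948) had 48.2 and 54.5 TPM, and Tbx3 (ENSMUSG00000018604.14, chr5:119670669-119684724) had 49.5 and 50.9 TPM. The ranges of the 2 genes overlapped, and their TPM ratio was 0.97 in replicate 1 and 1.07 in replicate 2.

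These T-box genes lie in tandem as an activator beside a repressor. Tbx2 and Tbx4 are 44.5 kb apart on chromosome 11, and Tbx3 and Tbx5 are 147.9 kb apart on chromosome 5, with all 4 genes on the plus strand. Within the chromosome 11 pair Tbx2 had 0.91 ± 0.0116 times the TPM of Tbx4, and within the chromosome 5 pair Tbx3 had 1.33 ± 0.0556 times that of Tbx5 (SD, n = 2). The activator was thus the higher gene in one pair and the lower gene in the other, in both libraries.

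Tcf21 (ENSMUSG00000045680.7, chr10:22817281-22820174) was the most abundant of the 10, at 186 TPM in replicate 1 and at 182 TPM in replicate 2. It ranked 745 among the 21474 protein-coding genes by mean TPM and carried 37.0% and 35.2% of the summed TPM of the 10 factors. Its level was 2.38 times that of Nr2f2, the next gene.

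Nr2f2, which in vessels also sets venous identity (ENSMUSG00000030551.9, chr7:70351944-70366735), had 75.4 and 79.4 TPM. Nr2f1 (ENSMUSG00000069171.9, chr13:78188973-78199757) had 5.25 and 7.44 TPM. The ratio of Nr2f2 to Nr2f1 was 14.4 in replicate 1 and 10.7 in replicate 2. Markers of venous and lymphatic endothelium, all 9 of them at 1 TPM or more in both libraries and led by Aplnr, Ephb4 and Ccl21a, summed to 293 and 323 TPM, and the share of Nr2f2 that came from vessels was not tested.

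Meox2 (ENSMUSG00000036144.6, chr12:37108540-37179534) stood at 27.0 TPM in replicate 1 and at 25.6 TPM in replicate 2. Osr1 (ENSMUSG00000048387.7, chr12:9570116-9581500) had 21.4 and 18.8 TPM. Both stood above the median of 16.2 TPM over the 14870 genes with a mean of 1 TPM or more.

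Barx1 (ENSMUSG00000021381.4, chr13:48662998-48666507) was the exception, with 8 counts and 0.28 TPM in replicate 1 and 20 counts and 0.69 TPM in replicate 2. Both counts exceeded 3 counts, the most that a listing at 0 would allow (0.0939 and 0.0905 CPM over mouse gene counts). Of the 11 measured stomach and oesophagus genes, 3 reached 1 TPM in both libraries, Sfrp2, Sfrp1 and Krt15, which other tissues also express. The stomach gene Gkn1 had 2 counts in replicate 1 and 0 in replicate 2, Tff1 and Pyy had 0 in both, and the list summed to 90.2 and 87.4 TPM. The part of neighbouring gut in the Barx1 counts was not tested.

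In order of mean TPM the genes ran Tcf21, Nr2f2, Tbx4, Tbx2, Tbx3, Tbx5, Meox2, Osr1, Nr2f1 and Barx1. The ranges over the 2 libraries overlapped between Tbx4 and Tbx2 and between Tbx2 and Tbx3, and between no other neighbours. Only Tbx2 and Tbx3 changed places between the libraries, and the other 8 genes held the same positions in each. With 2 libraries, no likeness of pattern between genes could be measured.

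For the other T-box genes the levels were lower. Of the 17 measured family genes, Tbx2, Tbx3, Tbx4 and Tbx5 carried 82.7% of the summed TPM in replicate 1 and 82.2% in replicate 2. Only Mga and Tbx1 among the 13 others had 1 TPM or more in both libraries. Mga, a broadly expressed partner of Max that holds a T-box beside a second DNA-binding domain, had 29.1 ± 1.75 TPM, and Tbx1, a factor of pharyngeal mesoderm, had 10.6 ± 2.53 TPM (SD, n = 2). Tbx1 was higher in replicate 2 by 0.44 on the log2 scale (exact binomial test, Benjamini-Hochberg adjusted p = 0.00039), which is under 2-fold. Without Mga, a choice made after its value was seen, the share of the 4 genes was 94.3% and 93.7%. Tbx21 and Tbx10 had 0 counts in both libraries.

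**Figure D2:**
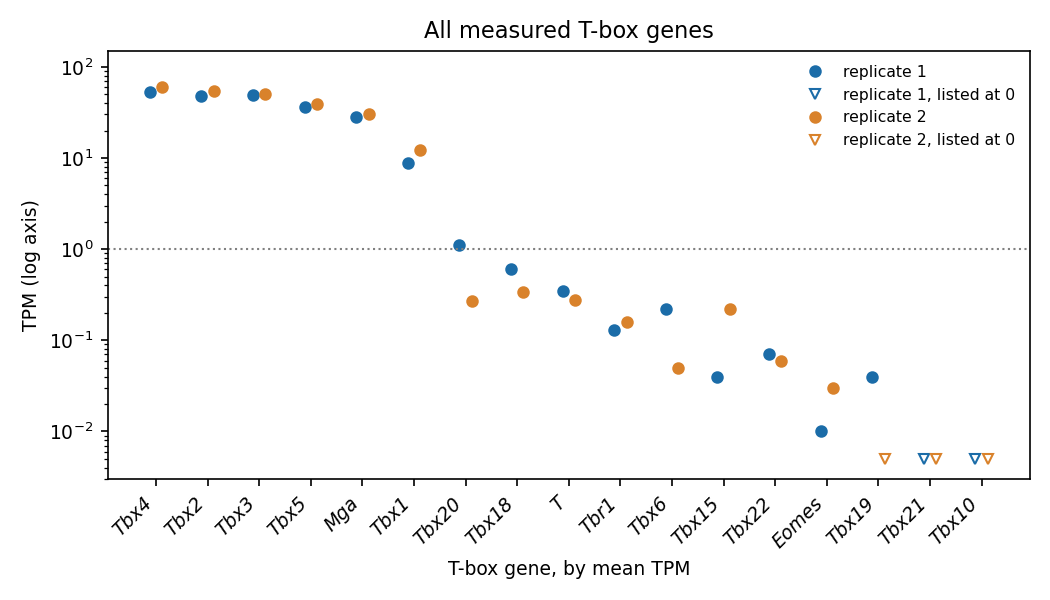
TPM of the 17 measured T-box genes (log axis) in replicates 1 and 2, with open triangles at the foot for values listed at 0 and the level of 1 TPM dotted. The 4 factors of lung mesenchyme lie at 36.1 TPM or more, followed by Mga and Tbx1, and Tbx20 is the gene near 1 TPM whose libraries are apart.

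Tbx20, a heart factor singled out after its values were seen, had 156 counts (1.10 TPM) in replicate 1 and 28 counts (0.27 TPM) in replicate 2, which lay below the filter on mean TPM. Without that filter it was 5.73-fold higher in replicate 1 (exact binomial test, Benjamini-Hochberg adjusted p = 1.07e-21). Of the 16 heart markers, 13 were tested and called higher in replicate 1, and the list was 5.59-fold higher there in summed TPM. Myl7 had 2955 counts in replicate 1 and 190 in replicate 2, Actc1 had 5848 and 2623, and Nppa had 234 and 0. The other called genes were Tnnt2, Myl4, Tnnc1, Tnni3, Myh6, Csrp3, Actn2, Ttn, Mybpc3 and Myl2, some of which passed the filter only through their level in replicate 1, so the count of 13 is a description. Below the filter, Ryr2 had 321 and 282 counts and Myl3 had 20 and 16 (adjusted p = 0.16 and 0.76 in the exact binomial test without it). The part of such muscle RNA in the Tbx20 value was not tested. Tbx2, Tbx3 and Tbx5 are also known from heart, and their log2 ratios of replicate 2 to replicate 1 were 0.12, 0.02 and 0.07. That of Tbx20 was -2.52 in the fit without the filter. Whether heart RNA added to Tbx2, Tbx3 and Tbx5 was not tested.

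Among the nearest relatives of the other factors, 7 of 13 genes reached 1 TPM in both libraries. Nr2f6, a further receptor of the COUP-TF class, had 74.1 and 81.9 TPM, a range that covers the 75.4 and 79.4 TPM of Nr2f2, and the receptor gene Nr2c2 had 22.7 ± 1.17 TPM. The tendon factor Scx, of the same helix-loop-helix class as Tcf21, had 20.8 ± 2.65 TPM (SD, n = 2). Tcf15 had a mean of 8.33 TPM, and Msc, Tcf23 and Tcf24 had 0.185, 0.155 and 0.195 TPM. These other listed relatives of Tcf21 were looked up after their values were seen. In the remaining families, looked up after the values were seen, Meox1 stood at 6.83 TPM against 26.3 TPM for Meox2, and Osr2 at 2.29 TPM against 20.1 TPM for Osr1. Barx2 was low, as Barx1 was, with 0.17 and 0.29 TPM.

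Of 30 genes of the surrounding pathway (signals, receptors, co-factors and targets), 24 reached 1 TPM in both libraries. Those 24 were tested and 0 were called, where 1.14% of all tested genes were. Nkx2-5, a heart factor below the filter, had 41 counts in replicate 1 and 6 in replicate 2, and was 6.67-fold higher in replicate 1 without the filter (exact binomial test, Benjamini-Hochberg adjusted p = 3.3e-06). The mesenchymal factor Foxf1 had 138 ± 10.3 TPM, the matrix gene Tgfbi 133 ± 5.73 TPM and the ligand gene Wnt2, which acts with Tbx5 in the lung field, 79.6 ± 3.48 TPM. Fgf10, the branching signal downstream of Tbx4 and Tbx5, had 14.5 ± 1.32 TPM. Among genes known as targets of Tbx2 or Tbx3, Cdkn1a, an inhibitor of the cell cycle, had 11.7 ± 0.127 TPM, the WNT antagonist gene Frzb 0.61 ± 0.141 TPM, and Cdkn2a had 0 counts in replicate 1 and 1 in replicate 2 (SD, n = 2). Fgf10, Cdkn1a, Frzb, Cdkn2a and Nkx2-5 were chosen for their roles after their values were seen.

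**Figure D3:**
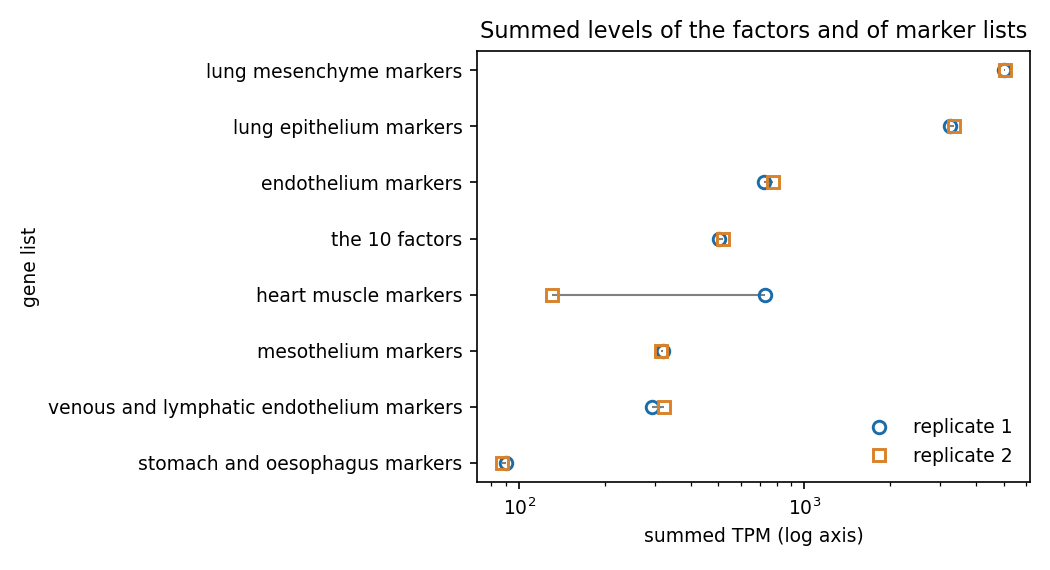
Summed TPM (log axis) of the 10 factors and of each list of cell type markers in replicates 1 and 2. The factors summed to 503 and 518 TPM and the sums of the other lists also lie close together, except for heart muscle with 728 and 130 TPM. Sums do not show single genes: 8 mesothelium genes were lower in replicate 2 and 1 was higher. Of the mesenchyme genes 9 were lower and 2 higher, of the epithelium genes 7 and 4, and of the endothelium genes 5 and 5. Of all tested genes, 49.6% had a ratio above 0.

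No call was made between the libraries: 0 of the 9 tested factors combined a 2-fold difference with an adjusted p below 0.05 (exact binomial test of scaled counts, Benjamini-Hochberg), against 1.14% of all 14870 tested genes, 0.356% higher and 0.78% lower in replicate 2. With the exact test of edgeR, run at a common dispersion, the number was also 0, against 0.713% of all genes. That dispersion was estimated from the same 2 libraries taken as 1 group. It therefore holds their difference, and the edgeR result is no independent check. At an unadjusted p under 0.05, 5 of the 9 passed the binomial test, against 33.1% of all tested genes, and 0 passed edgeR's test, against 3.82%. At any size, 3 passed the adjusted p of the binomial test, against 22.5% of all tested genes. The filter on mean TPM of 1 or more left Barx1 out.

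Those 3 differences were small. Tbx2 had 3789 counts in replicate 1 and 4301 in replicate 2, 1.09-fold higher in replicate 2 after scaling (95% counting interval 1.04 to 1.14, adjusted p = 0.0019, exact binomial test). Osr1 had 911 and 803 counts, at 0.84 times its replicate 1 level (0.77 to 0.93, adjusted p = 0.0040, exact binomial test). Tcf21 had 4669 and 4583 counts, at 0.94 times (0.90 to 0.98, adjusted p = 0.018, exact binomial test). Scaling to the spike-ins shifted the median log2 ratio of all genes by 0.34, and Osr1, Tcf21 and Meox2 came out higher in replicate 2. With TMM the median log2 ratio was 0.02 for the 9 factors and -0.0016 for all tested genes.

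The 4 T-box factors all had log2 ratios above 0, at 0.12 for Tbx2, 0.08 for Tbx4, 0.07 for Tbx5 and 0.02 for Tbx3, but the intervals of Tbx5 (-0.0039 to 0.14) and Tbx3 (-0.03 to 0.08) included 0. Nr2f2 had a log2 ratio of -0.0022 (-0.05 to 0.05) and Meox2 one of -0.14 (-0.25 to -0.02). Of all tested genes, 49.6% had a ratio above 0. For Barx1, below the filter, the log2 ratio was 1.21 (0.01 to 2.65; exact binomial test without the filter, adjusted p = 0.16).

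**Figure D4:**
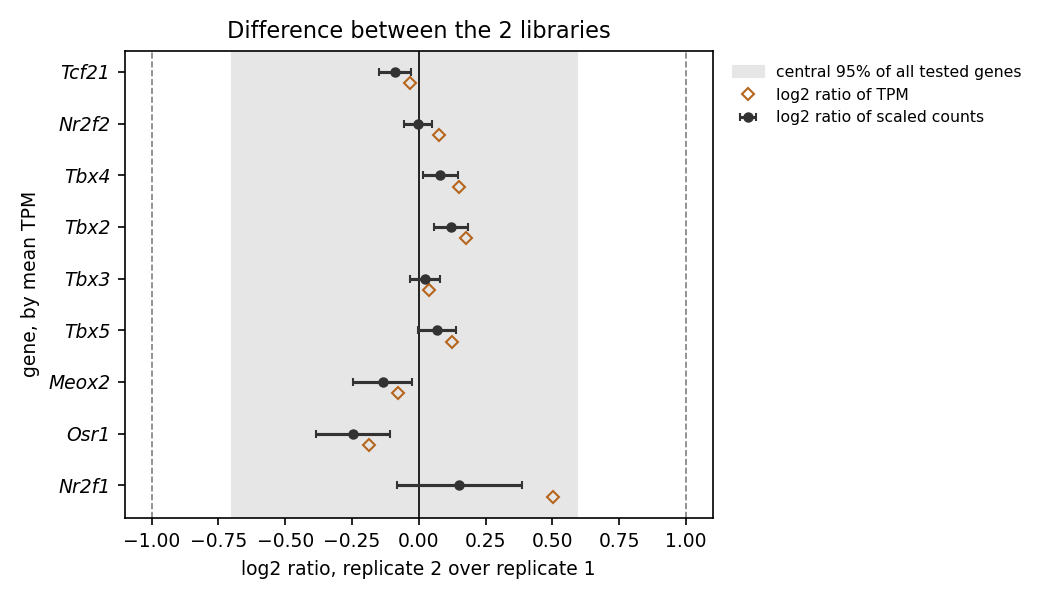
Log2 ratio of replicate 2 to replicate 1 for the 9 tested factors, as scaled counts with 95% counting intervals and as TPM (open diamonds), with the 2-fold limits dashed and the central 95% of all tested genes (-0.70 to 0.59) shaded. All 9 lie inside the shaded range, and Nr2f1 shows the widest gap between the measures, 0.15 by counts and 0.50 by TPM.

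Nr2f1 had the widest gap between the count ratio and the TPM ratio. It had 286 counts in replicate 1 and 332 in replicate 2, a ratio of 1.11 after scaling (0.95 to 1.31), while its TPM ratio was 1.42. The effective length used for the gene was 2441 nt in replicate 1 and 1992 nt in replicate 2, a value averaged over the estimated mixture of its transcripts. On the count scale the difference is within counting error, and the TPM difference rests on the transcript estimates that follow.

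A single transcript is listed for 6 of the factors, and several for the other 4: Tbx3, Tbx4, Nr2f1 and Nr2f2. In Tbx3 the transcript with the 60-nt exon printed above, Tbx3-201, carried 25.8% of the gene's TPM in replicate 1 and 32.9% in replicate 2. The coding transcripts without it, Tbx3-203 and Tbx3-202, carried 51.0% and 17.1% in replicate 1 and 42.4% and 21.5% in replicate 2. Tbx3-203 and Tbx3-202 encode the same 721 codons and differ in their non-coding ends, so the form without the exon was the more abundant in both libraries. The authors' posterior SD for Tbx3-201 was 168 counts in each library, beside 1358 and 1782 expected counts, and its deposited TPM intervals of 9.74 to 15.9 and 13.1 to 19.4 overlapped. A retained-intron transcript, Tbx3-204, stood at 6.08% and 3.25%.

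Nr2f2 divided its TPM between the first exons printed above. Nr2f2-201, with 414 codons, carried 73.4% in replicate 1 and 71.6% in replicate 2, and the short Nr2f2-202, with 281 codons, carried 26.6% and 28.4%. The share was steady, with a mean of 27.5 ± 1.27% for the short form (SD, n = 2). In TPM the short form alone, at 20.04 and 22.5 TPM, lay near the 21.4 and 18.8 TPM of Osr1. A limit applies to this exon: in GENCODE M21 its whole length of 643 nt lies within exons of B130024G19Rik, a non-coding gene on the opposite strand with 931 and 913 counts. The deposited posterior SD of the Nr2f2 gene count was 0 in both libraries, in tables made with GENCODE M4. Strand use in counting is not named in the sources used here. Tbx3 and the opposite-strand Tbx3os1 both had fractional counts in replicate 1 (4955.96 and 80.04) and the same posterior SD of 1.34. Whether reads there were divided without regard to strand was not tested. The part of B130024G19Rik reads in the Nr2f2-202 share was not tested.

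Among the leading transcripts of the 4 genes, that of Tbx4 differed most in share between the libraries. Tbx4-203, which begins with a non-coding exon of 141 nt (chr11:85886422-85886562), carried 95.01% of the TPM in replicate 1 and 75.7% in replicate 2. Tbx4-201, which lacks that exon, carried 4.99% and 24.03%, from 173 and 930 expected counts with posterior SDs of 135 and 190. Its deposited TPM intervals, 0.72 to 8.01 in replicate 1 and 9.13 to 19.8 in replicate 2, did not overlap. Those of the leading Tbx4-203, 43.6 to 51.5 and 37.9 to 48.5, did overlap, around 50.8 and 44.9 TPM. Both transcripts encode the same 552 codons, and together they carried 100% of Tbx4 TPM in replicate 1 and 99.7% in replicate 2. Tbx4-202, which starts at an internal exon and encodes 452 codons, had 0 and 12.2 counts.

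Nr2f1 was estimated with less precision. Nr2f1-201, with 420 codons and a first exon that encodes most of the DNA-binding zinc fingers, carried 64.1% in replicate 1 and 48.1% in replicate 2. Its own level did not fall: it had 3.37 and 3.58 TPM, with overlapping deposited intervals of 2.71 to 3.73 and 2.98 to 4.02. Nr2f1-202, with 273 codons and an internal first exon of 32 nt, carried 16.9% and 39.4%, from 14.7 and 48.8 expected counts with posterior SDs of 7.13 and 12.2. Its TPM intervals of 0.00 to 1.55 and 0.75 to 3.99 overlapped, although its replicate 2 estimate of 2.94 TPM lay above the replicate 1 interval. Whether the shift exceeds the deposited uncertainty was not tested.

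By leading transcript, 2 of these 4 genes (Tbx4 and Nr2f1) differed by 10 points or more between the libraries, against 19.2% of the 9840 genes with several transcripts and a mean of 1 TPM or more, where the median difference was 3.35 points. The limit of 10 points was set after the shares were seen. These 4 genes are too few to set a share against that background.

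**Figure D5:**
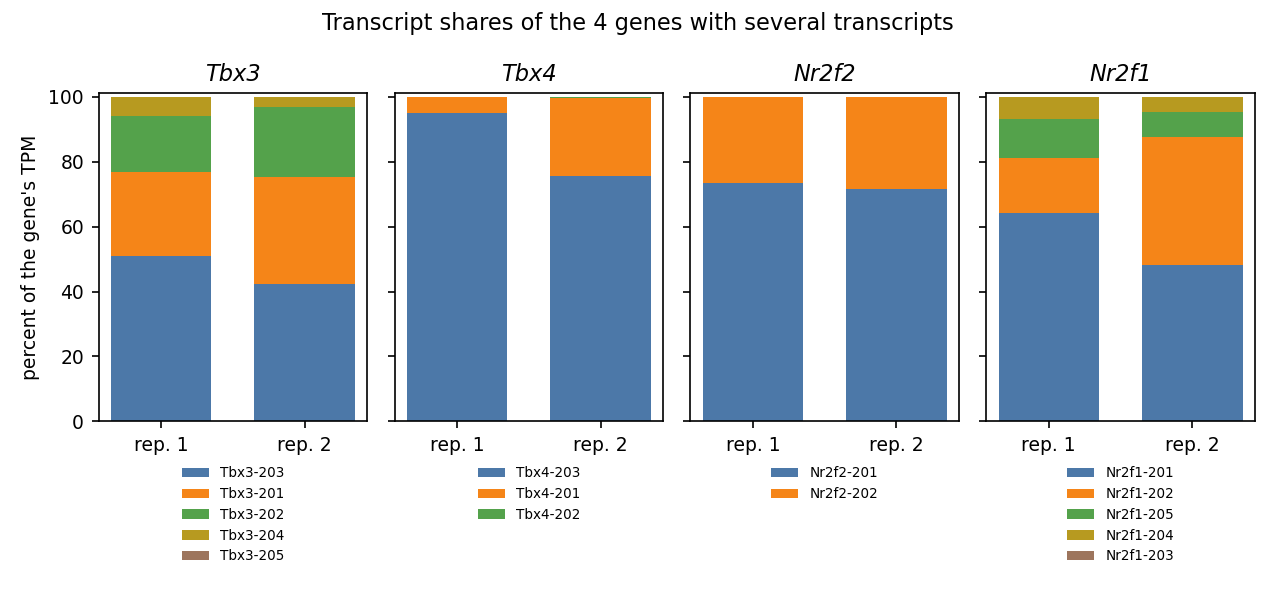
Percent of each gene's TPM on its annotated transcripts in replicates 1 and 2 for Tbx3, Tbx4, Nr2f2 and Nr2f1. The leading transcript is the same in both libraries for all 4 genes, with the smallest difference in Nr2f2 (73.4% and 71.6%) and the largest in Tbx4 (95.01% and 75.7%).

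Several factors have non-coding neighbours. Of 17 annotated genes that overlap a factor or lie within 10 kb, 10 were in the tables and 5 of those had 1 TPM or more in both libraries. B130024G19Rik, opposite Nr2f2, had 17.6 ± 0.594 TPM, and Tbx3os1, opposite the start of Tbx3, had 12.1 ± 0.389 TPM. A830082K12Rik, opposite Nr2f1, had 5.01 ± 0.0778 TPM, nearly the level of Nr2f1 itself (SD, n = 2). Upstream of Tbx2 lie 2610027K06Rik, at 7.55 TPM, and the coding gene Bcas3, at 26.1 TPM. Gm11444, Tbx3os2, Gm29007, Gm28258 and 1700022H16Rik had from 0 to 7 counts per library. Gm43050, Gm10824, Gm48617, Gm38604, 3110006O06Rik, Gm44946 and Gm44948 had no matching entry in the tables, so their levels are not known.

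The deposited uncertainty of assignment was low for the factors that overlap these genes. Nr2f1 shares 123 nt of exon with the opposite-strand A830082K12Rik, which had 135 and 130 counts. The part of A830082K12Rik reads in the Nr2f1 values was not tested. Tbx3 and Tbx3os1 share 115 nt of exon, and the posterior SD of the Tbx3 count was 1.34 in replicate 1 and 1.43 in replicate 2. For the other 9 factors it was 0 in both libraries. The overlaps were read from GENCODE M21, whereas the deposited counts were made with M4. An SD of 0 therefore cannot show that reads of these neighbours were kept out.

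The windows around gene starts are described by their CpG content, and its relation to level was not tested. RefSeq promoter windows (GRCm38.p6, 250 nt before to 50 nt after a start) were matched for 6 of the 10 genes, with 7 windows. Tbx2, Tbx3, Tbx5 and Osr1 had no matched window. The windows of Tcf21, the highest gene, and Barx1, the lowest, are printed with each CG in capitals. Tcf21 (chr10:22820094-22820393, minus strand) had 8 CG and a GC content of 53.3%, and Barx1 (chr13:48662786-48663085, plus strand) had 50 CG and a GC content of 84.7%.
Tcf21: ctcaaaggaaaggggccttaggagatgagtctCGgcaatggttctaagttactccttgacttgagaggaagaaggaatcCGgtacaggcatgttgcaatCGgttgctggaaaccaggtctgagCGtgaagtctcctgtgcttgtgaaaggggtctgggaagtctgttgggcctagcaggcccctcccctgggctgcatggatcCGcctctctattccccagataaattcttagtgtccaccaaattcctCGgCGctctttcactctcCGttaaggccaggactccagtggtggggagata
Barx1: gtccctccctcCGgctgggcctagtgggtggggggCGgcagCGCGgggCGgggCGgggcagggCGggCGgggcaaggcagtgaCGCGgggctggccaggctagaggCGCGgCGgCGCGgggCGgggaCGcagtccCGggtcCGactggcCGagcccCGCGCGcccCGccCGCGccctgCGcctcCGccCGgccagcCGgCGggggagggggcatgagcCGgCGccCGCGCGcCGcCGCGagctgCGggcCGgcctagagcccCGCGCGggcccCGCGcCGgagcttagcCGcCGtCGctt
Over all 32851 windows the median was 7 CG, so Tcf21 lay near the middle and Barx1 above 99.1% of them. The window at the Nr2f2-202 start held 2 CG, that of Tbx4, at the internal start of the rare Tbx4-202, held 8, that of Meox2 held 12, and those of Nr2f1 held 23 and 4. No window was matched at the start of the leading Nr2f2-201. The Nr2f1 window with 23 CG lies inside the annotated first exon of Nr2f1-201. The T-box core motif GGTGTGA, searched on both strands, was in 0 of the 7 windows and in 3.98% of all windows.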

How the data were processed

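Total RNA from 2 libraries of E14.5 lung (10.0 ng each, size minimum 200 nt, spike-ins added, per the labels) was analysed. The authors deposited expected counts, TPM, the percent of gene TPM per transcript, posterior SDs and TPM intervals, per the file headers. The read-me files name mm10 and GENCODE M4; the aligner, the counting program and strand use are not named in the sources used here. Nothing mentions molecular identifiers, so intervals and limits cover counting error only.

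Members and gene lists were chosen with earlier results of these data known. Names came from GENCODE M21 by unversioned identifier (42462 of 43346 genes), and 17 of 21 member transcripts had the same length there. Muc16 and Bapx1 were not matched. Expected counts were rounded and scaled by TMM (edgeR 4.0.16, R 4.3.3). An exact two-sided binomial test was run on 14870 genes with mean TPM of 1 or more, with ratios of replicate 2 over replicate 1 after adding 0.5, and genes were called at adjusted p under 0.05 and 2-fold. The test was tested on simulated Poisson counts, which hold counting error only, so its behaviour under a wider spread was not tested. Named genes were all members, their transcripts of 10% or more, the 3 highest genes of each list, list genes called between the libraries, and neighbours within 10 kb. Upk3b, Krt8 and Krt19 led the mesothelium list (9 of 9 detected; Msln was called, lower in replicate 2), and Egfl7, Esam and Cldn5 the endothelium list (10 of 10). DESeq2 1.42.0 size factors were an alternative.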

Additional observations from a re-analysis of the deposited data

How the results depend on the processing

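All 9 detected factors remained at the detection limits of 0.5 and 5 TPM, with posterior mean TPM and in each library alone, and the count of factors past both the fold limit and the adjusted p stayed 0 under DESeq2 size factors, summed mouse gene counts, the spike-in sum, no filter (where Barx1 was past 2-fold but not the adjusted p), edgeR's exact test and a 1.5-fold limit. Without a fold limit it was 3 in the binomial test. The dispersion in edgeR's test came from the same 2 libraries, so that setting is no independent check. Summed TPM of the factors became 499.6 with posterior mean TPM and 566.2 when TPM was rescaled over mouse genes only, against 510.4 as reported. The T-box share on Tbx2, Tbx3, Tbx4 and Tbx5 became 81.6% with posterior mean TPM and 76.2% by expected counts, which are not corrected for length, against 82.4%. Log2 ratios changed sign with the spike-in sum for Tcf21 (0.25), Meox2 (0.21), Nr2f2 (0.34) and Osr1 (0.10), and with summed mouse gene counts for Nr2f2 (0.0059). These sign changes follow from the scaling, which moved the median log2 ratio of all genes by 0.34 and 0.0081; the cause of the other differences was not tested. No paired analysis was possible because there is 1 group. Depth limits Barx1, at 8 and 20 counts, and the rarer Nr2f1 transcripts.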
